A study of Mus musculus with 20 samples.

Results

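The 9 genes described here encode the rod phototransduction cascade downstream of the visual pigment: *Gnat1*, *Gngt1*, *Pde6a*, *Pde6b*, *Pde6g*, *Cnga1*, *Cngb1*, *Sag* and *Rcvrn*. They were chosen by name, as 9 of the 24411 gene symbols in the deposited table, and all 9 passed the filter on low values. RNA was sequenced from the RPE-choroid of C57BL/6 mice, 20 libraries in 4 groups of 5: WT mice and mice lacking *Stra6* in the germ line (*Stra6-/-*), each kept from weaning for 12 weeks on a vitamin A sufficient diet (VAS, 4 IU per g) or a vitamin A deficient diet (VAD, 0 IU per g). All pups had been with dams on standard chow until weaning. Per the study's methods, the WT mice came from a supplier and the knockouts were bred in house, so genotype and colony cannot be told apart. STRA6 is the transporter that takes retinol into the RPE. By the study's account, each library held the pooled tissue of both eyecups of 1 mouse, taken after the neural retina had been peeled off.

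In a rod, light-activated visual pigment switches on transducin, transducin relieves the inhibition of the cGMP phosphodiesterase PDE6, and the fall in cGMP closes a cation channel in the outer segment membrane. Arrestin then caps the pigment, and recoverin tunes how long the pigment stays active as calcium falls. Cones run the same cascade with paralogous proteins encoded by other genes. All 9 are photoreceptor genes, and the RPE is the epithelium that faces the outer segments and phagocytoses their tips. In bulk tissue, fewer rods in a library and less of an RNA in each rod cannot be told apart. For that reason the values below are read both as levels and as ratios within a library.

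All values are gene counts divided by 1 size factor per library, called normalized values here. The libraries held 13331903 to 21878614 reads, with a median of 17790113, over the 19 from which reads could be recovered. The level of the targeted gene *Stra6* did not follow all labels. VAS WT had 2591 ± 149 normalized units (SD over 5 libraries) and VAS *Stra6-/-* 629 ± 49.8. VAD WT had 986 ± 415, with 693, 697 and 669 in replicates 1, 3 and 5, close to VAS *Stra6-/-*, and 1340 and 1529 in replicates 2 and 4. The group labelled VAD *Stra6-/-* had 2163 ± 154, a level above VAD WT and against the label. RPE markers differed in the same direction, with sums of 43858 to 86541 in VAD WT and 573925 to 621936 in the group labelled VAD *Stra6-/-*. The part of RPE content in the *Stra6* levels was not tested. The labels give no sex, and the libraries differed in *Xist*, transcribed from the inactive X of females, and *Ddx3y*, a gene of the Y chromosome. In VAS WT *Xist* ran from 7.69 to 38.4 and *Ddx3y* from 981 to 1193, and in VAS *Stra6-/-* *Xist* ran from 15320 to 18052 and *Ddx3y* from 0 to 1.02, so genotype on the VAS diet cannot be told apart from this difference. VAD WT split: replicates 2 and 4 had *Xist* at 10912 and 11767 and *Ddx3y* at 75.2 and 80.5, while replicates 1, 3 and 5 had *Xist* from 174 to 234 and *Ddx3y* from 1041 to 1133. Both transcripts were present in all 5 libraries labelled VAD *Stra6-/-*, with *Xist* from 3570 to 4280 and *Ddx3y* from 741 to 970. Diet among the libraries labelled *Stra6-/-* thus cannot be told apart from this difference either. The study states 1 mouse per library, and how a library came to hold both transcripts was not tested. Because VAD WT split, the comparisons with it are given with and without its replicates 2 and 4.

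Together the 9 genes took 72905 to 82894 normalized units in the VAS WT libraries and 79645 to 87115 in VAS *Stra6-/-*. VAD WT replicates 1, 3 and 5 held 68352 to 70541, and replicates 2 and 4 held 159134 and 159389. The libraries labelled VAD *Stra6-/-* were the lowest, at 45301 to 51917. The marker lists of other tissues also differed between these groups, some of them over a wider range. The 11 RPE markers summed to 138110 to 155168 in VAS WT, 151163 to 159635 in VAS *Stra6-/-*, 43858 to 86541 in VAD WT and 573925 to 621936 in the libraries labelled VAD *Stra6-/-*. The 10 cornea and surface epithelium markers, keratin 12 among them, ran from 552425 to 681793, from 832881 to 865533, from 372165 to 1114997 and from 20978 to 28041 in the same order. Skeletal muscle markers ran from 10722 to 12765, from 29105 to 32585, from 2995 to 13401 and from 19465 to 23692, and the 5 sclera and tendon markers from 8399 to 9196, from 9442 to 10126, from 5824 to 40282 and from 48670 to 50847. The 15 markers of inner retina neurons and Muller glia, the other cells a retinal remnant could hold, stayed between 7133 and 12893 in all libraries, with *Onecut1* at 0 in VAS WT and in the libraries labelled VAD *Stra6-/-*. Markers of choroid endothelium, 5 genes, summed to 5915 to 6405 for VAS WT, 6126 to 6934 for VAS *Stra6-/-*, 3590 to 11817 for VAD WT and 8632 to 9513 for the group labelled VAD *Stra6-/-*. No defining marker of the other lists was at 0 throughout a group. The part of these tissues in the rod gene differences was not tested.

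**Figure D1:**
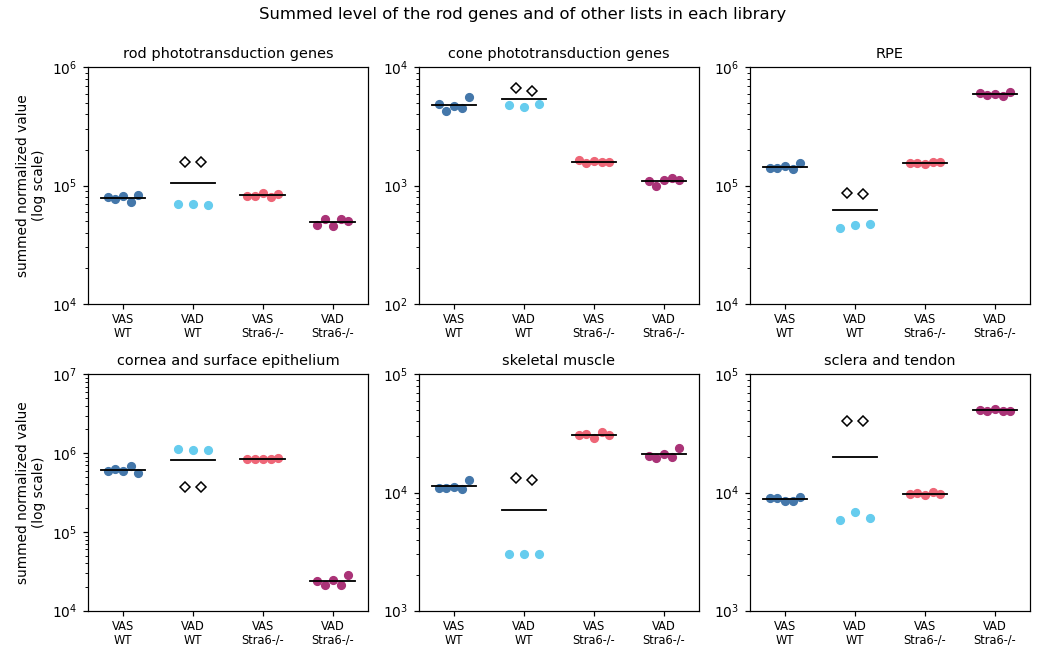
Summed normalized value of the 9 rod genes and of 5 other gene lists in each library, on log axes of differing range. Each point is 1 library, open diamonds are VAD WT replicates 2 and 4, and bars are group means. The rod genes span 45301 to 159389, while cornea markers fall to 20978 to 28041 and RPE markers reach 573925 to 621936 in the libraries labelled VAD Stra6-/-.

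Transducin carries the signal from the pigment to PDE6. *Gnat1* (chr9:107674474-107679712, GRCm38, as for all positions here) encodes its rod alpha subunit and was by far the most abundant member. Its normalized values were 35395, 33489, 36663, 32754 and 35906 in VAS WT replicates 1 to 5, 40016, 40106, 44848, 39361 and 42960 in VAS *Stra6-/-*, 33881, 76523, 32730, 79454 and 32516 in VAD WT, and 18375, 20661, 18020, 20924 and 20117 in the libraries labelled VAD *Stra6-/-*. The last group lay below every other library, and VAS *Stra6-/-* lay above VAS WT without overlap. *Gngt1* (chr6:3993792-3997436), the rod transducin gamma subunit, went the other way between the VAS groups: 4850, 4260, 5047, 4508 and 5810 in VAS WT against 3385, 3580, 3635, 3170 and 3615 in VAS *Stra6-/-*. It stood at 4988, 7482, 4814, 5993 and 4569 in VAD WT and at 1850, 1908, 1597, 1749 and 1684 in the libraries labelled VAD *Stra6-/-*. The 2 subunits of the same complex thus parted in VAS *Stra6-/-*, where *Gnat1* was the higher and *Gngt1* the lower of the VAS groups.

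PDE6 hydrolyses cGMP and consists of the catalytic subunits encoded by *Pde6a* (chr18:61220315-61289924) and *Pde6b* (chr5:108388391-108432397) and the inhibitory gamma subunit encoded by *Pde6g* (chr11:120447605-120453500). *Pde6a* was at 4446, 4002, 4109, 3716 and 4179 in VAS WT, 5632, 5333, 5786, 5319 and 5507 in VAS *Stra6-/-*, 3729, 11006, 4502, 10797 and 4032 in VAD WT, and 2558, 3014, 2358, 3294 and 2729 in the libraries labelled VAD *Stra6-/-*. *Pde6b* was at 5271, 5006, 5381, 4876 and 5501, then 4347, 4474, 4570, 4257 and 4461, then 3582, 10615, 3722, 10141 and 3997, then 3258, 3548, 3192, 3510 and 3528 in the same order of groups. *Pde6a* was higher and *Pde6b* lower in VAS *Stra6-/-* than in VAS WT, both without overlap. *Pde6g* was at 7614, 7787, 8279, 7215 and 8491 in VAS WT, 6395, 6492, 6803, 6895 and 6991 in VAS *Stra6-/-*, 6300, 14268, 6016, 13533 and 6010 in VAD WT, and 3280, 3632, 3167, 3655 and 2953 in the libraries labelled VAD *Stra6-/-*. All 3 subunits lay under all other libraries in the last group. *Pde6g* and *Pde6a* fell clear of them, while *Pde6b* came close to VAD WT replicates 1, 3 and 5, with a highest value of 3548 against 3582 in replicate 1.

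The cGMP-gated channel passes the current that light shuts off, and *Cnga1* (chr5:72603696-72644275) and *Cngb1* (chr8:95239045-95306585) encode its alpha and beta subunits. *Cnga1* was at 3146, 2671, 2999, 2567 and 2832 in VAS WT and 2925, 3540, 3293, 3344 and 3208 in VAD WT, against 1997, 1813, 2012, 1794 and 1879 in VAS *Stra6-/-* and 1461, 1781, 1504, 1730 and 1899 in the libraries labelled VAD *Stra6-/-*. Its values split by genotype label, with every *Stra6-/-* library under every WT library, and the 2 *Stra6-/-* groups overlapped. *Cngb1* was at 3261, 3143, 3175, 2740 and 3130 in VAS WT, 3374, 4313, 3500, 4751 and 3114 in VAD WT, 2488, 2429, 2344, 2374 and 2484 in VAS *Stra6-/-*, and 1240, 1297, 1284, 1361 and 1087 in the libraries labelled VAD *Stra6-/-*. It stepped down again between the *Stra6-/-* groups, where *Cnga1* did not separate.

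*Sag* (chr1:87803680-87845158) encodes rod arrestin and *Rcvrn* (chr11:67695326-67703333) recoverin, which cones use as well. *Sag* was at 13147, 13321, 13353, 12062 and 14107 in VAS WT, 14189, 13814, 14225, 13625 and 14822 in VAS *Stra6-/-*, and 12923, 14418, 12559, 14059 and 14705 in the libraries labelled VAD *Stra6-/-*. These 3 groups overlapped. In VAD WT it was at 9851, 25359, 9922, 25051 and 9417, so that replicates 1, 3 and 5 lay under, and replicates 2 and 4 above, every library of the other groups. *Rcvrn* was at 2802, 2947, 2765, 2466 and 2937 in VAS WT, 2813, 2973, 2892, 2850 and 2859 in VAS *Stra6-/-*, 1911, 6028, 1498, 6325 and 1488 in VAD WT, and 1592, 1659, 1620, 1630 and 1846 in the libraries labelled VAD *Stra6-/-*. The last group overlapped VAD WT replicates 1, 3 and 5 and lay under both VAS groups. *Glp2r*, a gene on the opposite strand with a mean of 449 normalized units, overlaps *Rcvrn*, and the counting is not stated to use strand, so reads of the pair cannot be told apart.

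**Figure D2:**
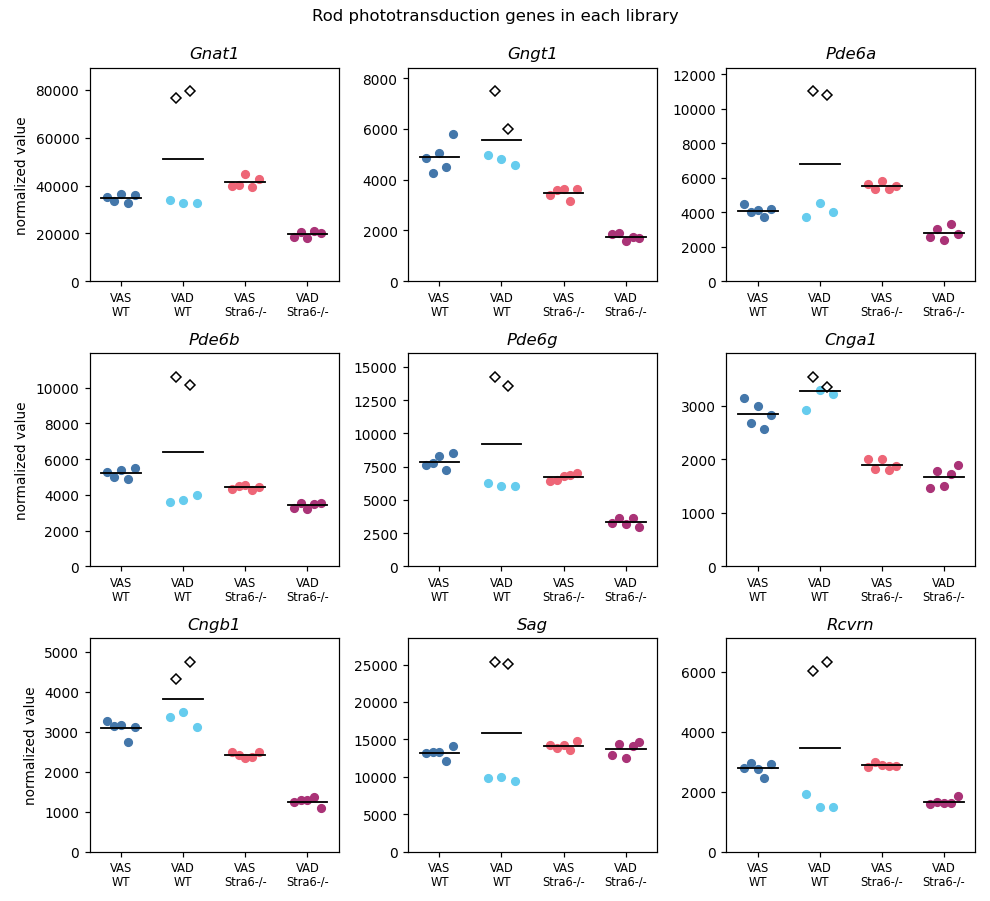
Normalized value of each rod gene in each of the 20 libraries, on linear axes from 0. Points are libraries, open diamonds are VAD WT replicates 2 and 4, and bars are group means. In the libraries labelled VAD Stra6-/-, Gnat1 lies between 18020 and 20924, under all others, while Sag at 12559 to 14705 overlaps both VAS groups.

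Levels of different genes were compared per kilobase of merged exon, as a description. In VAS WT the order of levels per kilobase was *Gnat1* at 11503 ± 546 (SD, n = 5), *Pde6g* at 3400 ± 221, *Rcvrn* at 2676 ± 187, *Sag* at 1482 ± 82.5, *Gngt1* at 1393 ± 169, *Pde6b* at 1036 ± 51.8, *Pde6a* at 873 ± 56.7, *Cnga1* at 449 ± 37.3 and *Cngb1* at 330 ± 21.6. *Sag* and *Gngt1* did not differ beyond their spread. The order rests on the length used: per kilobase of the median coding transcript, *Sag* rose to the third place with 7991 ± 445, behind *Gnat1* at 14966 ± 711 and *Pde6g* at 8753 ± 570. In the libraries labelled VAD *Stra6-/-*, *Gnat1* at 6477 ± 441 lay above *Sag* at 1542 ± 106 (SD, n = 5) per kilobase of merged exon. On the second scale they were at 8428 ± 574 and 8315 ± 571, which did not differ beyond their spread.

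The first comparison was of genotype on the sufficient diet, where the groups also differed without overlap in *Xist* and *Ddx3y*. In VAS *Stra6-/-* the channel genes *Cnga1* and *Cngb1* and the transducin gamma gene *Gngt1* were lower than in VAS WT, *Gnat1* and *Pde6a* passed as higher in 2 alternative fits but not with all 20 libraries, and *Sag* and *Rcvrn* passed in none of the 3 fits. With limma on log2(value + 1) and all 20 libraries, 3 of 9 members were called lower at an adjusted p under 0.05 and 0 higher, beside 10.8% of 18807 genes called lower and 15.9% called higher. The log2 fold change of *Cnga1* was -0.58 (SE 0.08, adjusted p = 1.07e-05, limma), of *Gngt1* -0.49 (SE 0.11, adjusted p = 0.00211, limma) and of *Cngb1* -0.35 (SE 0.09, adjusted p = 0.00844, limma). This fit takes its spread from all groups, including the split VAD WT group. With only the 2 VAS groups in the fit, 7 members passed: those 3 with *Pde6b* at -0.23 (adjusted p = 0.000451, limma) and *Pde6g* at -0.23 (adjusted p = 0.00252, limma) lower, and *Pde6a* at 0.43 (adjusted p = 3.27e-05, limma) and *Gnat1* at 0.25 (adjusted p = 0.00148, limma) higher. In that fit 19.5% of genes were called lower and 24.1% higher, so that 2 of 9 higher is near the background. Leaving out VAD WT replicates 2 and 4 also gave 5 members lower and 2 higher, beside 17.5% and 22.5% of genes. The members' median was -0.23 on the log2 scale, against 0.02 over all genes tested.

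The second comparison was of diet in WT mice. No member passed with all 5 VAD WT libraries in the limma fit, where 3.29% of genes were called higher and 5.50% lower. The nearest were *Cngb1* at a log2 fold change of 0.29 (SE 0.09, adjusted p = 0.0640, limma) and *Cnga1* at 0.20 (SE 0.08, adjusted p = 0.129, limma). At an unadjusted p under 0.05, 3 members stood out, and DESeq2 on recovered reads called 2, *Pde6a* and *Cngb1*, higher, beside 1059 of 18807 genes. The same 2 passed in limma without VAD WT replicate 1, beside 566 genes called higher. *Cngb1* alone passed without replicate 5, beside 519. VAD WT replicates 2 and 4 exceeded replicates 1, 3 and 5 by unequal factors: 2.76-fold for *Pde6b*, 2.67-fold for *Pde6a*, 2.59-fold for *Sag*, 2.36-fold for *Gnat1* and 2.28-fold for *Pde6g*, but 1.41-fold for *Gngt1*, 1.36-fold for *Cngb1* and 1.10-fold for *Cnga1*. The factor for *Rcvrn* was 3.78-fold. Without replicates 2 and 4, 4 members were lower in VAD WT than in VAS WT: *Rcvrn* at -0.78 (SE 0.07, adjusted p = 4.46e-08, limma), *Pde6b* at -0.47, *Sag* at -0.44 and *Pde6g* at -0.36, while *Gnat1* (-0.08), *Gngt1* (-0.02), *Pde6a* (-0.00), *Cnga1* (0.15) and *Cngb1* (0.11) did not pass. That fit called 17.6% of genes higher and 20.3% lower.

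The third comparison was of genotype on the deficient diet, which the *Stra6* values set against the label. The libraries labelled VAD *Stra6-/-* were lower than VAD WT in 8 of 9 members and higher in 0, beside 29.6% of genes called lower and 26.2% higher. The members' median log2 fold change was -1.12, against -0.05 over all genes. *Gngt1* changed most at -1.64 (SE 0.11, adjusted p = 4.30e-11, limma), then *Cngb1* at -1.59 (SE 0.09, adjusted p = 5.83e-12, limma) and *Pde6g* at -1.35 (SE 0.19, adjusted p = 3.95e-06, limma). *Gnat1* followed at -1.25, *Pde6a* at -1.12, *Cnga1* at -0.97, *Rcvrn* at -0.73 (adjusted p = 0.0452, limma) and *Pde6b* at -0.73, and no member went beyond 2 on the log2 scale. The call of *Rcvrn* was lost on leaving out any library but VAD WT replicates 1, 3 and 5. With only these 2 groups in the fit 6 members were lower, beside 25.0% of genes called lower and 22.3% higher, and the calls of *Pde6b* (adjusted p = 0.103, limma) and *Rcvrn* (adjusted p = 0.208, limma) were lost. *Sag* was the exception, with a log2 fold change of -0.05 (SE 0.22, adjusted p = 0.860, limma). Leaving out VAD WT replicates 2 and 4 left groups that did not overlap in *Xist* or *Ddx3y*. Genotype in that fit cannot be told apart from this difference. Without VAD WT replicates 2 and 4, *Sag* was higher in the libraries labelled VAD *Stra6-/-* by 0.49 (SE 0.05, adjusted p = 7.06e-08, limma), *Rcvrn* stood at 0.04 (SE 0.07, adjusted p = 0.664, limma) and *Pde6b* at -0.14 (SE 0.05, adjusted p = 0.0161, limma). The other 6 were lower by 0.56 to 1.45, so that 1 member was called higher and 7 lower beside 30.7% and 32.5% of genes.

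The fourth comparison was of diet among libraries labelled *Stra6-/-*, and VAD WT enters it only through the spread of the fit. It shares the libraries labelled VAD *Stra6-/-* with the third. Its 2 groups also differed without overlap in *Xist*, *Ddx3y* and *Stra6*, so diet cannot be told apart from those differences. Here 6 of 9 members were lower on the deficient diet and 0 higher, beside 28.8% of genes called lower and 24.4% higher. The called members sat close together: *Gnat1* at a log2 fold change of -1.08 (SE 0.21, adjusted p = 0.000149, limma), *Pde6g* at -1.01, *Pde6a* at -0.99, *Gngt1* at -0.98, *Cngb1* at -0.95 and *Rcvrn* at -0.79 (SE 0.30, adjusted p = 0.0332, limma). The other 3 were *Pde6b* at -0.38 (adjusted p = 0.180, limma), *Cnga1* at -0.19 (adjusted p = 0.0510, limma) and *Sag* at -0.04 (SE 0.22, adjusted p = 0.894, limma). With only these 2 groups in the fit, *Pde6b* passed as well (adjusted p = 8.12e-06, limma), making 7 lower beside 32.8% of genes called lower and 29.4% higher, and *Sag* stayed at -0.04 with an SE of 0.05. Without VAD WT replicates 2 and 4, 8 members were lower, beside 32.4% of genes called lower and 28.3% higher: the first 6, *Pde6b* (adjusted p = 1.61e-07, limma) and *Cnga1* (adjusted p = 0.0261, limma). The call of *Rcvrn* was lost with edgeR (adjusted p = 0.0612) and DESeq2 (adjusted p = 0.0661). That left 5 members lower, beside 5029 and 5135 of 18807 genes. The *Rcvrn* call was also lost in limma on leaving out 9 of the 20 libraries in turn, any of VAS *Stra6-/-* or any but replicate 5 of the libraries labelled VAD *Stra6-/-*. *Cnga1* passed on leaving out any of 8 libraries: VAS WT replicates 1 and 4, VAD WT replicates 1, 2 and 4, VAS *Stra6-/-* replicate 4, and replicates 2 and 5 of the libraries labelled VAD *Stra6-/-*.

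**Figure D3:**
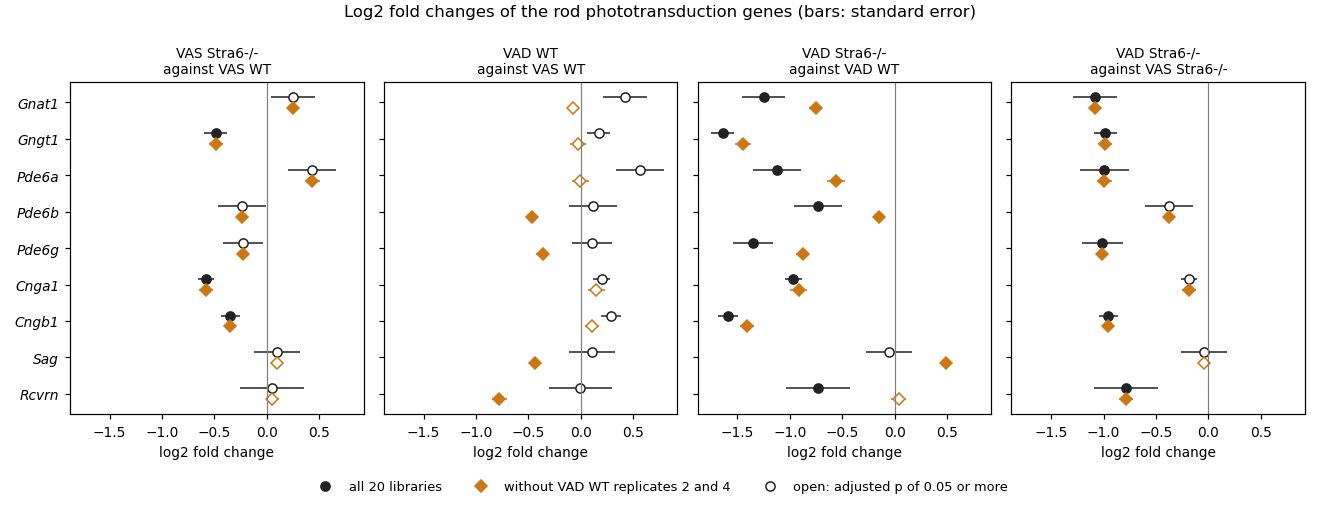
Log2 fold change of each rod gene in the 4 comparisons, with standard errors, from limma with all 20 libraries (circles) and without VAD WT replicates 2 and 4 (diamonds). Filled symbols passed an adjusted p of 0.05. Between the groups labelled Stra6-/-, 6 genes lie between -1.08 and -0.79 and Sag lies at -0.04, while leaving out 2 libraries moves all members in the comparisons with VAD WT.

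The diet effect was then set against genotype as an interaction, the diet effect among libraries labelled *Stra6-/-* minus that in WT. It was negative and passed for 6 members, from -1.56 for *Pde6a* (SE 0.33, adjusted p = 0.000499, limma) to -0.39 for *Cnga1* (SE 0.11, adjusted p = 0.00717, limma), beside 24.8% of genes called lower and 19.5% higher. It did not pass for *Pde6b* at -0.50, *Rcvrn* at -0.78 and *Sag* at -0.15. Without VAD WT replicates 2 and 4 the same 6 were lower, from -1.06 for *Cngb1* to -0.33 for *Cnga1*, with *Pde6a* at -0.99 and *Pde6g* at -0.65, and *Sag* became higher at 0.39 (SE 0.07, adjusted p = 8.00e-05, limma), beside 29.0% and 25.7% of genes.

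Ratios between members within a library do not depend on how much rod RNA the library holds, and 4 of them were chosen for description after their values had been seen, with no test. The *Sag* to *Gnat1* ratio averaged 0.379 ± 0.015 (SD over 5 libraries) for VAS WT, 0.341 ± 0.014 for VAS *Stra6-/-* and 0.306 ± 0.018 in VAD WT, where replicates 2 and 4 were the highest of values between 0.290 and 0.331. It was 0.700 ± 0.021 in the libraries labelled VAD *Stra6-/-*, with a lowest value of 0.672 against a highest of 0.398 elsewhere. Arrestin RNA was thus higher per transducin alpha RNA in those 5 libraries than in the other 15. The *Pde6a* to *Pde6b* ratio was 0.786 ± 0.036 in VAS WT, 1.07 ± 0.08 in VAD WT, 1.25 ± 0.04 in VAS *Stra6-/-* and 0.817 ± 0.079 in the libraries labelled VAD *Stra6-/-*. The *Gngt1* to *Gnat1* ratio was 0.140 ± 0.013 in VAS WT, 0.122 ± 0.033 in VAD WT (0.098 and 0.075 in replicates 2 and 4), 0.084 ± 0.003 in VAS *Stra6-/-* and 0.090 ± 0.007 in the libraries labelled VAD *Stra6-/-*. The gamma to alpha ratio was thus lower than in VAS WT in both groups labelled *Stra6-/-* and also in VAD WT replicates 2 and 4. The *Cngb1* to *Cnga1* ratio was 1.09 ± 0.06, 1.17 ± 0.17, 1.28 ± 0.07 and 0.758 ± 0.116 in the same order.

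**Figure D4:**
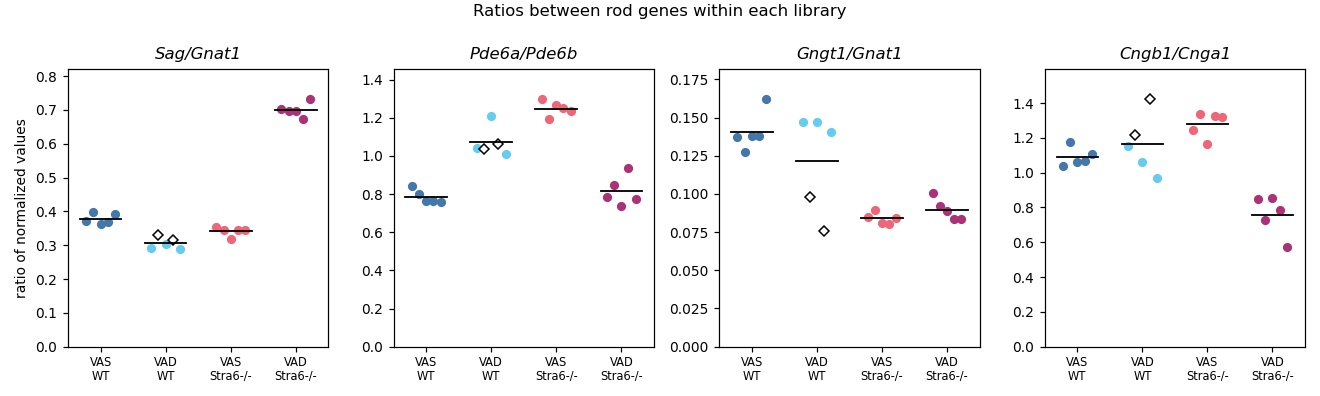
Ratio of normalized values of 4 pairs of rod genes within each library, on linear axes from 0. Points are libraries, open diamonds are VAD WT replicates 2 and 4, and bars are group means. Sag to Gnat1 lies between 0.290 and 0.398 in 15 libraries and between 0.672 and 0.731 in those labelled VAD Stra6-/-.

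Across all 20 libraries, which share the group structure, *Pde6g* followed the mean of the other members most closely (Pearson's r = 0.980) and *Sag* least (r = 0.522). Without VAD WT replicates 2 and 4 these became 0.985 and -0.156. Of 13511 genes outside the members with a mean of at least 50, those whose log2 values followed the members' mean most closely were *Clip3* (r = 0.978), *Snap25* (r = 0.977), *Prph2* (r = 0.976), *Kcnj14* (r = 0.975), *Nr1d1* (r = 0.972), *Brsk2* (r = 0.969), *Camta1*, *Celf3* and *Aipl1* (r = 0.966 each). These are descriptions over libraries in 4 groups.

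The genes were also compared with their cone paralogs, as the log2 ratio of rod to cone gene within each library, with exact two-sided permutation tests. With 5 libraries against 5 the smallest p is 0.00794, and p-values were adjusted over 32 tests. All 8 ratios were higher with the *Stra6-/-* genotype on the VAS diet than in VAS WT. The median difference was 1.77, with a range from 0.78 to 2.55. All 10 cone genes were called lower there (limma), with a median log2 fold change of -1.72, while the rod members ran from -0.58 to 0.43. *Gnat2*, the cone transducin alpha gene, fell from 674 ± 84.3 to 170 ± 5.27 normalized units (SD, n = 5), and its ratio rose by 2.22 (exact permutation p = 0.00794, adjusted p = 0.0149). *Arr3*, the cone arrestin gene, fell from 446 ± 49.7 to 80.8 ± 9.30, and the *Sag* to *Arr3* ratio rose by 2.55 with the same p.

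Between the groups labelled *Stra6-/-* the rod to cone ratios went both ways. *Sag* to *Arr3* rose by a further 4.51, *Pde6g* to *Pde6h* by 2.73 and *Cnga1* to *Cnga3* by 1.91 (adjusted p = 0.0149, 0.0149 and 0.0381, exact permutation tests). In the libraries labelled VAD *Stra6-/-* these cone genes were close to 0: *Pde6h*, the cone PDE6 gamma gene, stood at 4.03 to 12.6 normalized units and *Arr3* at 0 to 11.3. *Cnga3*, the cone channel alpha gene, was at 0 in 4 of those libraries and 3.07 in the fifth, so its ratio depends on the added 1. *Arr3* was at 0 in replicates 1 and 5, so the *Sag* to *Arr3* log2 ratios of 13.7 and 13.8 there depend on it as well. By contrast *Gnat1* to *Gnat2* fell by 1.71, *Gngt1* to *Gngt2* by 1.04, *Pde6a* to *Pde6c* by 1.95 and *Pde6b* to *Pde6c* by 1.33, each with an adjusted p of 0.0149 (exact permutation tests). Of the cone genes, *Gnat2* was higher there, by a log2 fold change of 0.63 over VAS *Stra6-/-* (SE 0.12, adjusted p = 0.000128, limma) and *Pde6c*, the cone catalytic subunit, by 0.95 (SE 0.31, adjusted p = 0.0126, limma), while their rod counterparts *Gnat1* and *Pde6a* were lower. *Cngb1* to *Cngb3* did not pass, at -0.62 (adjusted p = 0.0577, exact permutation test). Against VAD WT, 3 ratios were higher and 1 lower in the libraries labelled VAD *Stra6-/-*, and in VAD WT against VAS WT 2 were higher, *Pde6g* to *Pde6h* by 0.76 and *Cngb1* to *Cngb3* by 0.71. Without VAD WT replicates 2 and 4 the smallest p is 0.0357 in these comparisons. Then 4 ratios were higher and 0 lower in the libraries labelled VAD *Stra6-/-*, with *Gnat1* to *Gnat2* gained at 0.80 and *Gngt1* to *Gngt2* lost at -0.37. In VAD WT against VAS WT the same 2 were higher, and *Gnat1* to *Gnat2* (-0.29) and *Sag* to *Arr3* (-0.79) were lower, each call with an adjusted p of 0.0497 (exact permutation tests). The lower ratio, *Gngt1* to *Gngt2*, lost its call on leaving out any of 15 libraries, *Cngb1* to *Cngb3* in VAD WT on leaving out any of 9, and *Cnga1* to *Cnga3* on leaving out any of 7 between the groups labelled *Stra6-/-* and any of 4 between the VAS groups.

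**Figure D5:**
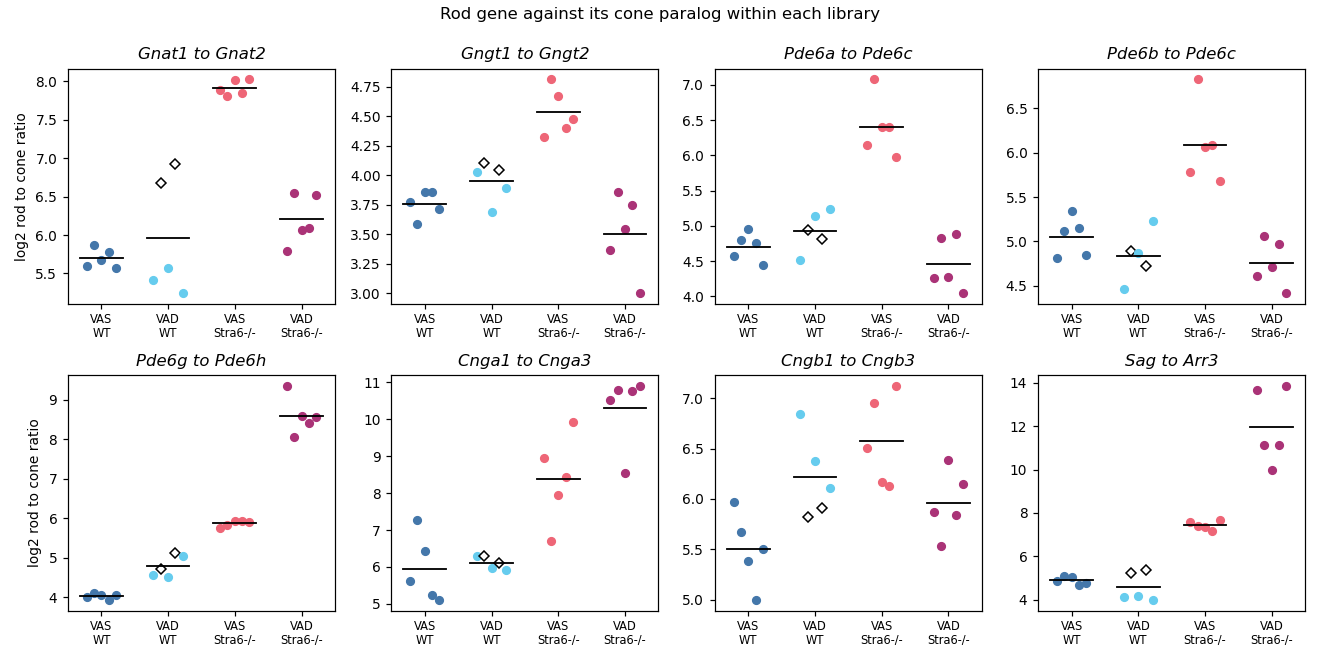
Log2 ratio of each rod gene to its cone paralog, as log2(value + 1), in each library. Points are libraries, open diamonds are VAD WT replicates 2 and 4, and bars are group means. VAS Stra6-/- lies above VAS WT in all 8 ratios, with differences of 0.78 to 2.55, and Gnat1 to Gnat2 is back to a mean of 6.20 in the libraries labelled VAD Stra6-/-, from 7.92 in VAS Stra6-/-.

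The other parts of the rod cascade and of the rod itself were read from 2 lists. Of 14 other phototransduction genes, 0 were higher and 2 lower in VAS *Stra6-/-* than in VAS WT: *Guca1a*, which encodes a calcium sensor of guanylate cyclase, at a log2 fold change of -0.38, and *Pde6d*, which encodes a carrier of prenylated proteins such as PDE6, at -0.39 (median of the list 0.07). *Pde6d* lost its call without VAS WT replicate 1 or 5. In that comparison 10.8% of all genes were called lower and 15.9% higher. With only the VAS groups fitted, 4 of the 14 were higher and 4 lower, beside 24.1% and 19.5% of all genes. Without VAD WT replicates 2 and 4 the counts were the same, beside 22.5% and 17.5%. Between the groups labelled *Stra6-/-*, 6 were lower and 2 higher (median -0.22). The counts were 8 and 3 with only these groups fitted (32.8% and 29.4% of all genes) and also without VAD WT replicates 2 and 4 (32.4% and 28.3%). *Grk1*, the gene of the kinase that starts shut-off of the visual pigment, stood at -1.37 (SE 0.15, adjusted p = 7.61e-08, limma) and *Guca1a* at -1.32. *Slc24a1*, the rod sodium-calcium-potassium exchanger that extrudes calcium beside the channel, was higher by 0.88 and *Pde6d* by 0.56. Of 18 rod identity and outer segment genes, 4 were lower in VAS *Stra6-/-*, with *Fscn2* at -0.58 and *Rdh12* at -0.42, and 0 higher (median -0.04), but 8 lower and 5 higher in both alternative fits. Between the groups labelled *Stra6-/-*, 9 were lower and 1 higher (median -0.53), and 16 lower and 1 higher in both alternative fits. *Reep6* at -1.57 and *Prom1* at -1.31, both needed for the rod outer segment, were lowest, and *Abca4*, the disc membrane retinoid flippase, was higher by 0.95 (adjusted p = 7.48e-11, limma). The arrestin gene was thus not alone in standing apart from the members that were lower: *Slc24a1* had 3947 ± 94.2 normalized units (SD over 5 libraries) in VAS *Stra6-/-* and 7248 ± 312 in the libraries labelled VAD *Stra6-/-*, and *Abca4* had 4726 ± 167 and 9169 ± 519. The RPE markers summed to 151163 to 159635 and to 573925 to 621936 in these groups. Whether other tissue than rods added to the *Slc24a1* and *Abca4* values was not tested. Each list is described by its counts only, beside the 28.8% and 24.4% of genes called lower and higher between these groups with all 20 libraries. The alternative fits stand beside their own shares above.

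Rod genes share regulation by the homeodomain factor CRX and the leucine zipper factor NRL, and RefSeq sequence upstream of the start (GRCm38.p6) was searched for 5 members, *Gngt1*, *Pde6b*, *Cnga1*, *Cngb1* and *Sag*. *Gnat1*, *Pde6a*, *Pde6g* and *Rcvrn* were not analysed here. The 250 bases before the start were searched on both strands for TAATCC, a core bound by CRX-type homeodomains, and TGCTGA, a short site of the NRL type, which do not overlap each other. The windows are shown for *Sag*, which kept its level in the libraries labelled VAD *Stra6-/-*, for *Cngb1*, which was lower in both groups labelled *Stra6-/-*, and for *Pde6b*, which lay between. Capitals mark a motif, as printed or as its reverse complement.
Sag, chr1:87803430-87803679, + strand: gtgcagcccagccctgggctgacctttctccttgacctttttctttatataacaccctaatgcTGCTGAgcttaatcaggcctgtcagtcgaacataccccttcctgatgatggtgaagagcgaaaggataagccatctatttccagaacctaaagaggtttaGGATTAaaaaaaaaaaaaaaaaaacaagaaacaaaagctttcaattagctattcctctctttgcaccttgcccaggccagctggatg
Cngb1, chr8:95306586-95306835, - strand: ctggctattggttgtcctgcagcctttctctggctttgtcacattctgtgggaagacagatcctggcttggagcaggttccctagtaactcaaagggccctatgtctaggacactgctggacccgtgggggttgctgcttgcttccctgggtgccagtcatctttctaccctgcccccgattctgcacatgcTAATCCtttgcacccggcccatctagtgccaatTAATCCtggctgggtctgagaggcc
Pde6b, chr5:108388123-108388372, + strand: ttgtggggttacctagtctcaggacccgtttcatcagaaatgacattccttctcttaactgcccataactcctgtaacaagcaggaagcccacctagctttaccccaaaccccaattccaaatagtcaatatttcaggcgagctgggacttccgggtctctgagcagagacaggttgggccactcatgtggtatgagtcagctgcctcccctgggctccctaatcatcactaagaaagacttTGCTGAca

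TAATCC occurred in 4 of the 5 members and in 6.25% of 32851 windows of that length in RefSeq. It lay 58 and 25 bases before the start in *Cngb1* and, on the opposite strand, 87 bases before it in *Sag*. Among the cone paralogs with a window, *Gnat2* held TAATCC on the opposite strand, 19 bases before the start, and *Arr3*, *Cnga3* and *Pde6h* did not. TGCTGA occurred in *Pde6b*, 8 bases before the start, and in *Sag*, 187 bases before it, and in 16.1% of windows. Members with and without a lower level in the libraries labelled VAD *Stra6-/-* both held a TAATCC. The windows of *Gngt1* and *Cnga1* overlap an exon of another annotated transcript, so only the bases around their motif are given, 44 bases before the start on the opposite strand in *Gngt1* and 228 in *Cnga1*.
Gngt1, chr6:3993952-3993981, + strand: tcatattaggggGGATTAtgaagaagcttt
Cnga1, chr5:72642963-72642992, - strand: agtgtctcatttTAATCCtaatgataaact
A match of 6 letters is a description of the sequence and not evidence of binding.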

How the data were processed

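RNA of the RPE-choroid was sequenced as poly(A)-selected paired-end libraries. Per the labels and the study's methods, alignment was to GRCm38/mm10 with STAR 2.5.3a and counting with RSEM 1.2.30. The signal that the authors deposited for a gene is its count over the size factor of that library from DESeq2 1.32.0, with neither length nor log scaling. All values of 19 libraries were whole multiples of 1 step (tolerance 0.02 reads), from which reads were recovered. The step of VAD *Stra6-/-* replicate 1 lies too near 1 for such a claim, so tests on counts used 19 libraries.

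Groups follow the labels. The plan named limma for normalized values, and limma 3.58.1 (R 4.3.3) was run on log2(value + 1) with 4 group means, an intensity trend and Benjamini-Hochberg adjustment over the 18807 genes with a total of at least 5 reads. The added 1 understates changes of genes with low values. A gene was called at an adjusted p under 0.05. Rod to cone ratios used exact permutation tests (scipy 1.17.1). Alternatives were edgeR 4.0.16, DESeq2 1.42.0, TMM scaling, pseudocounts of 0.5 and 4, other filters, no trend, only the groups compared, a replicate block, each library left out in turn, and VAD WT replicates 2 and 4 left out. Levels per transcript length were added after the values had been seen. The limma script was tested on simulated data. Positions and exon lengths came from GENCODE vM21.

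The 9 members and all gene lists were chosen with earlier results of these data known. Named were the members, their cone paralogs, *Stra6*, of each list at most 2 called genes at each end, and the 10 genes of most like pattern, of which 1 is not reported here. *Xist*, *Ddx3y* and *Glp2r* were added after their values were seen. Per the study's methods, each library came from the eyecups of 1 mouse, 5 mice per group.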

Additional observations from a re-analysis of the deposited data

Results flagged for a closer look

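The effect of the diet differed between the genotype labels, by the interaction test in limma, for 6 of the 9 rod genes: *Pde6a* (-1.56), *Gnat1* (-1.50), *Cngb1* (-1.24), *Gngt1* (-1.15), *Pde6g* (-1.12) and *Cnga1* (-0.39), each as the log2 diet effect among libraries labelled *Stra6-/-* minus that in WT. With all 20 libraries the test called 24.8% of all genes lower and 19.5% higher. Without VAD WT replicates 2 and 4 all 6 passed with values nearer 0, from -1.06 for *Cngb1* to -0.33 for *Cnga1*. That fit called 29.0% of all genes lower and 25.7% higher. Of 10 cone genes the same test called 6 lower and 1 higher with all 20 libraries. Among the paralogs of the members these were *Arr3* (-4.98), *Pde6h* (-3.09), *Cnga3* (-2.11) and, in the other direction, *Gnat2* (0.48). The call of *Gnat2* was lost without VAD WT replicates 2 and 4 (adjusted p = 0.0510, limma), without VAS WT replicate 5, and without replicate 1 or 4 of the libraries labelled VAD *Stra6-/-*. The call of *Cnga3*, at 0 in 4 libraries labelled VAD *Stra6-/-*, was lost with an added 4 in place of 1 (-1.03) and on leaving out any of 8 libraries, replicates 2 and 3 of VAS WT, replicates 2 and 3 of VAS *Stra6-/-* and replicates 1, 2, 4 and 5 of the libraries labelled VAD *Stra6-/-*. For *Stra6* itself the difference was 3.27, beside a median of 3.42 over the 11 RPE markers. The diet effects thus rest on libraries in which the level of the targeted gene went against its label. The part of RPE content in that level was not tested.

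Single libraries were flagged within their group in 3 of 68 groups of 5 examined. VAS WT replicate 4 was low for *Cngb1* (2740), replicate 5 of the libraries labelled VAD *Stra6-/-* was high for *Rcvrn* (1846), and replicate 3 of the same group was high for *Cnga3* (3.07). Chance flags about 1 in 20 groups, so 3 of 68 is near what chance gives.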

How the results depend on the processing

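Of 1386 values of the members under alternatives, 1320 stayed on their side of the threshold with no reversed call, 34 lost a call, 26 gained one and 6 changed sign with a call before or after. All 6 came from leaving out VAD WT replicates 2 and 4. Against VAS WT, VAD WT then gave *Pde6b* -0.47, *Pde6g* -0.36 and *Sag* -0.44, with the cone opsin *Opn1sw* at -0.72 and the *Gnat1* to *Gnat2* ratio at -0.29. The libraries labelled VAD *Stra6-/-* then gave *Sag* 0.49 and *Rcvrn* 0.040 against VAD WT, and the interaction of *Sag* was 0.39. The number of members called between VAS *Stra6-/-* and VAS WT was 3, but 7 with only those groups fitted and 7 without VAD WT replicates 2 and 4, where the split within VAD WT no longer enters the fit. Between VAD WT and VAS WT it was 0, but 4 without those replicates, 2 with DESeq2, and 0 to 2 with each library left out in turn, 2 without VAD WT replicate 1 and 1 without replicate 5. In the other comparisons it was within 1.5 times. Over all genes, 7124 in place of 1652 were called between VAD WT and VAS WT without replicates 2 and 4 and 639 with only those groups fitted, and 7524 and 8208 in place of 5010 between the VAS groups. *Rcvrn* lost its call in 17 and 9 of 20 fits with 1 library left out, against VAD WT and VAS *Stra6-/-*. Same-numbered libraries did not deviate together (correlations from -0.069 to 0.065), and a replicate block gave 3, 0, 8, 6 and 6 members called, as without it.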
